A study of Homo sapiens with 9 samples.

Results

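The mitochondrial genome of human cells is a small circle that codes for 37 RNAs, and all 37 were rows of the deposited table of 60606 genes. They were taken as every row whose symbol starts with MT-, a rule that uses no measured value, although it was set with earlier results of these data known. They comprised 13 mRNAs, 2 rRNAs and 22 tRNAs. RNA was sequenced from 3 libraries of each of 3 cell lines. U87 is an established human glioblastoma line grown in serum. GSCs are glioblastoma stem cells derived from U87, kept in serum-free medium with B27, bFGF and EGF and irradiated repeatedly. Diff cells are the progeny of the irradiated GSCs, differentiated in serum and grown from cells picked out of clonal colonies, so that irradiation is shared by GSCs and Diff cells, serum by U87 and Diff cells, and neither factor was varied alone. The study's methods call its data biological replicates in general, without naming the sequencing, and no label says that the 3 libraries of a line came from separate cultures. Unless they did, p-values measure the spread between these libraries only, which may be technical.

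Mitochondrial DNA is transcribed from both strands into long precursors that run over many genes. The tRNAs lie between most of the mRNAs and rRNAs, and their excision by RNase P and ELAC2 releases the mature RNAs. A nuclear-encoded polymerase, POLRMT, does the transcription with TFAM and TFB2M, and the levels of single mRNAs then depend largely on processing, polyadenylation and decay by other nuclear-encoded proteins. All 13 mRNAs code for core subunits of the respiratory chain or ATP synthase, of which 7 belong to complex I, 1 to complex III, 3 to complex IV and 2 to ATP synthase. In GENCODE 29 (build GRCh38) 28 of the genes lie on the plus strand of chromosome M, the product of the heavy-strand promoter, and 9 on the minus strand. The minus-strand genes are 8 tRNAs and MT-ND6, which is the 1 mRNA made from the light-strand promoter.

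Bases shared by genes bear on the counting, and sequences are shown for the mRNA pairs that share several. Other pairs share fewer: MT-ATP6 and MT-CO3 share position 9207, MT-TC and MT-TY position 5826, and MT-TI and MT-TQ positions 4329 to 4331. MT-ATP8 (chrM:8366-8572) and MT-ATP6 (chrM:8527-9207), both plus strand, overlap by 46 bases and sit on 1 bicistronic mRNA. MT-ND4L (chrM:10470-10766) and MT-ND4 (chrM:10760-12137) overlap by 7 bases and also share an mRNA. The last and first 60 bases of these genes, from the GENCODE transcripts with the shared bases in capitals, read 5′ to 3′ as follows.
MT-ATP8 end: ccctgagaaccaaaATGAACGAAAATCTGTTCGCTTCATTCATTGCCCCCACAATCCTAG
MT-ATP6 start: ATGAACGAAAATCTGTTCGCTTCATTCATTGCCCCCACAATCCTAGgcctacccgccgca
MT-ND4L end: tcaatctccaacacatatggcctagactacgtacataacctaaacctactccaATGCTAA
MT-ND4 start: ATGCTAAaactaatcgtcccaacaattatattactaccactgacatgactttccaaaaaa

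The strands differ in base composition, shown here by the first 120 bases of MT-ND6 (chrM:14554-14673, minus strand) and of MT-CO3 (chrM:9207-9326, plus strand) with G in capitals. G made up 35.6% of MT-ND6 and 14.8% of MT-CO3, and between 6.28% (MT-ATP8) and 16.2% (MT-CO1) of the 12 plus-strand mRNAs.
MT-ND6: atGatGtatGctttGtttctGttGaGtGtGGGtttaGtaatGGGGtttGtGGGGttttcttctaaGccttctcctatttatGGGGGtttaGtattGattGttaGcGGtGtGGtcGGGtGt
MT-CO3: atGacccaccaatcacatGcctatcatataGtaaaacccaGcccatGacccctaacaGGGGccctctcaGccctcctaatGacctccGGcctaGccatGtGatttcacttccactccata

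The deposited values were log2(TPM + 1), where TPM (transcripts per 1000000) is a level divided by gene length and by the library total. For the 37 mitochondrial rows the read behind each TPM could be recovered, since TPM multiplied by gene length came in whole steps (largest deviation from a whole read 0.002). The libraries held 18.6 to 25.3 counted reads by this estimate, in units of 1000000, of which 1.74 to 2.82 in the same unit fell on mitochondrial genes. Of glial and mesenchymal markers, VIM (582 to 1655 TPM) and CD44 (285 to 473 TPM) were high in all libraries, and GFAP stood at 0.66 to 2.57 TPM. Nestin (NES), expressed in neural progenitors, was at 31.1 to 35.5 TPM in U87, 21.7 to 23.3 TPM in GSCs and 12.7 to 14.6 TPM in Diff cells. All 3 markers fixed for stem cells were highest in GSCs, although low: FABP7 at 4.38 to 5.82 TPM (0.546 to 3.27 TPM in the other lines), SOX2 at 0.809 to 0.994 TPM (at most 0.185 TPM) and PROM1 at 0.379 to 0.596 TPM (at most 0.238 TPM). Because the RNA is bulk, fewer cells of a type and less RNA per cell cannot be told apart. The labels describe removal of rRNA and directional libraries, and the study's methods describe selection of polyadenylated RNA, so how rRNA was kept out of the libraries is not settled here.

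How overlapping genes were counted was read from the data. Among annotated genes that lie wholly inside the exons of an expressed gene (over 20 TPM), 6 of 172 on the opposite strand (3.49%) and 5 of 214 on the same strand (2.34%) were above 0, against 65.7% of 36313 genes of the same length range with no overlap. This is the pattern of counting that ignores strand and leaves out fragments that touch more than 1 gene. A value for MT-ND6 therefore holds reads of either strand over that gene, and short genes next to others (MT-ATP8, MT-ND4L, MT-ND3 and the tRNAs) lose the fragments that reach a neighbour. The labels give a fragment length of about 200 bp, longer than every tRNA gene.

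The mitochondrial genes made up a large part of each library, with the highest mean share in Diff cells. They held 25.9%, 28.8% and 27.6% of TPM in U87 replicates 1 to 3, 30.0%, 27.9% and 30.8% in GSCs, and 31.8%, 30.7% and 30.8% in Diff cells. Every Diff library lay above every U87 library, and GSCs overlapped both other lines. The means were 27.4% ± 1.46 in U87, 29.5% ± 1.5 in GSCs and 31.1% ± 0.655 in Diff cells (SD, n = 3 each), and a two-sided exact permutation test over the 280 ways of dividing the libraries into 3 lines gave p = 0.0464 (0.0710 after Benjamini-Hochberg adjustment over the 26 shares and ratios tested), which does not pass 0.05 once adjusted. Without U87 replicate 1 the difference between Diff cells and U87 was 2.89 percentage points instead of 3.66. RN7SL1, the signal recognition particle RNA, was the other very abundant RNA of these libraries. It held 8.77% to 9.79% of TPM in U87, 5.73% to 7.84% in GSCs and 6.67% to 8.54% in Diff cells. RN7SL1 was thus highest in U87, where the mean mitochondrial share was lowest. Its mean was lowest in GSCs, whose range overlapped that of Diff cells. With RN7SL1 left out of the total the difference between Diff cells and U87 was 3.44 percentage points (exact permutation p = 0.0429 over the 3 lines), and as a share of reads instead of TPM it was 1.67 points (p = 0.00357, the smallest that the exact test can give). The share of reads was smaller than that of TPM, at 8.73% to 9.905% in U87, 9.906% to 10.7% in GSCs and 10.96% to 11.1% in Diff cells. By reads Diff cells thus lay above both other lines. The total of reads is approximate, since it covers only rows matched to a GENCODE 29 length. These held 96.5% to 96.8% of TPM in U87 and 96.9% to 97.3% in the other lines. Of genes with few reads, 81.6% to 82.4% came to whole reads with these lengths.

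Almost all of this was mRNA. The 13 mRNAs together held 27.3%, 29.3% and 30.9% of TPM in U87, GSCs and Diff cells (means), the 22 tRNAs 0.11%, 0.150% and 0.184%, and the 2 rRNAs 0.0127%, 0.0536% and 0.0346%. The small shares of GSCs rested on replicate 3, in which the rRNAs held 0.117% of TPM, against 0.0196% and 0.0243% in replicates 1 and 2. Without it the rRNA share of GSCs was 0.0219%, below that of Diff cells instead of above it, and the tRNA share 0.115%, where the difference from U87 was 0.00599 percentage points instead of 0.0409. MT-CO2, a core subunit of complex IV, had the highest mean level of the 13 (46296 to 60837 TPM), followed by MT-ND4 of complex I (36725 to 48413 TPM). The lowest were MT-ND4L (5091 to 7688 TPM), MT-ND3 (1724 to 3211 TPM) and MT-ATP8 (549 to 1416 TPM). These last are the short genes whose fragments reach neighbours. Neighbours in the order of levels overlapped in range, as MT-ND5, MT-CYB, MT-ND2, MT-ATP6 and MT-ND6 did.

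**Figure D1:**
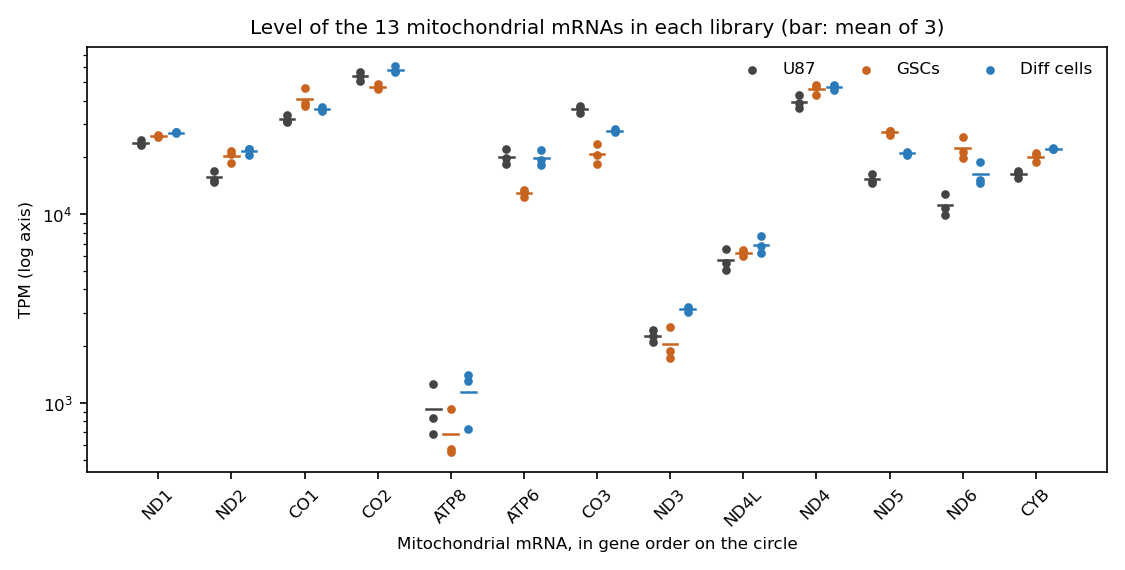
TPM on a log axis of the 13 mitochondrial mRNAs in gene order, with 1 point per library, 3 libraries per line and a bar at the mean. MT-ND5 and MT-ND6 were highest in GSCs and lowest in U87, MT-CO3 ran the other way, and MT-ATP8, MT-ND3 and MT-ND4L lay below the rest in every library.

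Differential expression was tested with limma on log2(TPM + 1) over the 22909 genes with a mean TPM over 1, in 1 fit of all 9 libraries, and genes were called at a Benjamini-Hochberg adjusted p under 0.05. Of the 37 mitochondrial genes 24 passed this filter: the 13 mRNAs, both rRNAs and 9 tRNAs. In GSCs against U87 limma called 4 of the 24 higher (MT-ND2, MT-ND5, MT-ND6 and MT-CYB, 16.7%, beside 25.3% of all genes) and 2 lower (MT-ATP6 and MT-CO3, 8.33%, beside 23.3%). In Diff cells against U87 it called 5 higher (MT-ND2, MT-ND3, MT-ND5, MT-ND6 and MT-CYB, 20.8%, beside 18.9%) and 1 lower (MT-CO3, 4.17%, beside 20.5%). In Diff cells against GSCs it called 3 higher (MT-ATP6, MT-CO3 and MT-ND3, 12.5%, beside 15%) and 2 lower (MT-ND5 and MT-ND6, 8.33%, beside 19.8%). Over all 24 genes calls were thus no more frequent than among all genes, except for the higher calls in Diff cells against U87, which were close to the background. All calls fell on mRNAs. For GSCs and U87 30.8% of the 13 mRNAs were called higher and 15.4% lower. For Diff cells and U87 the shares were 38.5% and 7.69%, and for Diff cells and GSCs 23.1% and 15.4%. Each of these shares rests on 1 to 5 genes and was not tested against that of all genes. No excess or lack of calls among the mRNAs is therefore read from them. None of the called mitochondrial genes reached an absolute log2 fold change of 1, a size that 17.1% of all genes reached while called for GSCs and 12.3% for Diff cells when each was set against U87, and 8.01% between Diff cells and GSCs. The median log2 fold change of the 13 mRNAs against U87 was 0.14 in GSCs (all genes 0.017) and 0.27 in Diff cells (all genes -0.036), and that of Diff cells against GSCs was 0.13 (all genes -0.056). The 3 comparisons share libraries and are not independent of each other.

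The calls depended on scaling and filter to different degrees. In 9 alternatives of pseudocount, filter, scaling, trend, samples and block (that with no filter apart, which called no mitochondrial gene), MT-ND5, MT-ND6, MT-CO3 and MT-ATP6 were called every time in GSCs against U87, as was MT-ND3 between Diff cells and GSCs. The 5 higher calls of Diff cells against U87 were lost with quantile normalization, which replaces each value by the mean of its rank over libraries, and with the filter, chosen after seeing the data, that kept every gene above 0 TPM. With quantile normalization the log2 fold changes there were 0.16 for MT-ND2, 0.36 for MT-ND3, 0.067 for MT-ND5, 0.15 for MT-ND6 and 0.077 for MT-CYB (adjusted p from 0.157 to 0.581, limma). Of the 6 calls in that comparison 1 (MT-CO3) was shared with the quantile fit, which also called MT-CO1 (0.32) and MT-ND4L (0.47) higher, MT-ATP6 lower (-0.42) and MT-TP higher (0.79). The mitochondrial mRNAs are among the most abundant RNAs, and quantile normalization removes any change among them that leaves their ranks as they were. A call lost with quantile normalization, here and below, may therefore be lost through the method alone.

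**Figure D2:**
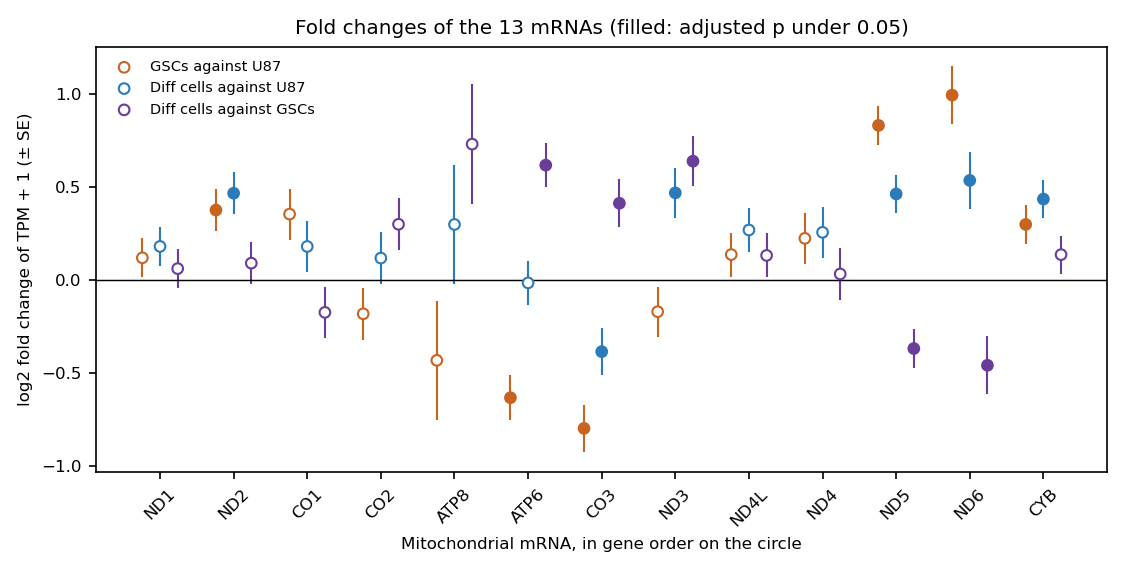
Log2 fold change of TPM + 1 with its standard error for the 13 mRNAs in gene order, for the 3 comparisons between lines; filled points had an adjusted p under 0.05. In GSCs against U87 the 5 neighbours from MT-CO2 to MT-ND3 lie below 0 and the 8 other mRNAs above it.

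The subunits of complex I, NADH dehydrogenase, did not move together. MT-ND5, which codes for a proton-pumping subunit (chrM:12337-14148), was at 14567, 16404 and 14957 TPM in U87, 27740, 26349 and 27528 TPM in GSCs, and 21506, 20666 and 21044 TPM in Diff cells. The 3 lines did not overlap, with GSCs highest and U87 lowest. MT-ND5 rose against U87 by a log2 fold change of 0.83 in GSCs (SE 0.10, adjusted p = 0.000197 from limma) and of 0.46 in Diff cells (adjusted p = 0.0072), and it fell by 0.37 from GSCs to Diff cells (adjusted p = 0.0238). The first pair of calls held with any single library left out, but that in Diff cells against U87 was lost with quantile normalization (0.067, adjusted p = 0.581). The third was lost in 5 of the 9 alternatives above and without GSCs replicate 1 or 3 or Diff replicate 2 or 3 (adjusted p from 0.0514 to 0.0765).

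MT-ND6, the light-strand subunit (chrM:14149-14673), was at 9968, 12805 and 10859 TPM in U87, 25527, 21490 and 19953 TPM in GSCs, and 18870, 14693 and 15216 TPM in Diff cells. The order of the lines was that of MT-ND5, again without overlap. It was higher in GSCs than in U87 by 0.99 (SE 0.16, adjusted p = 0.000754 from limma), a ratio of means of 1.99, which held with any library left out. In Diff cells against U87 it rose by 0.54 (adjusted p = 0.0237), a call lost with quantile normalization (0.15, adjusted p = 0.399) and without U87 replicate 1 or 3 or Diff replicate 1 (0.0666 to 0.0916), and against GSCs it fell by 0.46 (adjusted p = 0.0488), a call that held in 3 of 9 fits with a library left out (log2 fold change -0.57 to -0.36, adjusted p 0.0306 to 0.15).

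MT-ND5 and MT-ND6 end against each other on opposite strands, at positions 14148 and 14149, and the mature MT-ND5 mRNA is known to run on into the region opposite MT-ND6. With strand ignored in the counting, such RNA and MT-ND6 mRNA cannot be told apart in these values. The ratio of MT-ND6 to MT-ND5 TPM, looked at after their values were seen, was 0.684, 0.781 and 0.726 in U87, 0.920, 0.816 and 0.725 in GSCs, and 0.877, 0.711 and 0.723 in Diff cells. The lines overlapped in this ratio, unlike in either gene alone.

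The other complex I subunits differed less. MT-ND2 (chrM:4470-5511) had 14856, 16954 and 15291 TPM in U87, 21609, 18766 and 20749 TPM in GSCs, and 22258, 20603 and 22153 TPM in Diff cells. Both irradiated lines lay above U87 and overlapped each other. Against U87 the Diff cells had a log2 fold change of 0.47 (SE 0.11, adjusted p = 0.0101 from limma), which held with any library left out but not with quantile normalization (0.16, adjusted p = 0.263). The GSCs had one of 0.38 (adjusted p = 0.0218), which was 0 with quantile normalization and was lost without U87 replicate 1 or 3 or GSCs replicate 1 or 3 (0.0525 to 0.0874). MT-ND3 (chrM:10059-10404) was at 2280, 2104 and 2450 TPM in U87, 1724, 1885 and 2538 TPM in GSCs, and 3029, 3201 and 3211 TPM in Diff cells, so that Diff cells stood above both other lines. It was higher in Diff cells by 0.64 against GSCs (adjusted p = 0.00636, in all 9 fits with a library left out) and by 0.47 against U87 (adjusted p = 0.0227, lost with quantile normalization at 0.157, and without U87 replicate 1 or 2 or Diff replicate 2 or 3, at 0.0596 to 0.0744). MT-ND1, MT-ND4 and MT-ND4L passed the test in no comparison, with log2 fold changes from 0.032 to 0.27.

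MT-CYB, the single mitochondrial subunit of complex III (chrM:14747-15887), was at 15651, 17013 and 16638 TPM in U87, 20591, 18893 and 21192 TPM in GSCs, and 22166, 22389 and 22058 TPM in Diff cells. U87 was the lowest line and Diff cells the highest, without overlap. The rise in Diff cells against U87 was 0.43 (SE 0.10, adjusted p = 0.0093 from limma) and held with any library left out, but was 0.077 with quantile normalization (adjusted p = 0.492). In GSCs against U87 the value was 0.30 (adjusted p = 0.0395), past the threshold in 2 of 9 fits with a library left out (0.043 to 0.14), and it turned to -0.091 with quantile normalization.

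The core subunits of complex IV, cytochrome c oxidase, diverged from one another. MT-CO3 (chrM:9207-9990) was at 34389, 37501 and 36650 TPM in U87, 20654, 18561 and 23482 TPM in GSCs, and 28239, 27684 and 27151 TPM in Diff cells. Each line was separate, in the reverse order of MT-ND5. MT-CO3 fell by 0.80 on the log2 scale in GSCs against U87 (SE 0.13, adjusted p = 0.000897 from limma), a ratio of means of 0.578, which held with any library left out. The fall of 0.385 in Diff cells against U87 (adjusted p = 0.0418) held in 2 of 9 such fits (0.0386 to 0.107), and the rise of 0.41 from GSCs to Diff cells (adjusted p = 0.0355) in 3 of 9 (0.0263 to 0.118). MT-CO1, the catalytic subunit, was at 31183, 33655 and 30941 TPM in U87, 39064, 37367 and 46464 TPM in GSCs, and 36924, 35269 and 36267 TPM in Diff cells. Its lines did not overlap, with GSCs highest, but the log2 fold change of 0.35 in GSCs against U87 missed the threshold (adjusted p = 0.0606, 0.00933 to 1 over the alternatives). MT-CO2 had log2 fold changes against U87 of -0.18 in GSCs and 0.12 in Diff cells, and of 0.30 from GSCs to Diff cells, none past the test (adjusted p = 0.134 for the last).

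MT-ATP6 and MT-ATP8 code for membrane subunits of ATP synthase. MT-ATP6 was at 18422, 19928 and 22105 TPM in U87, 13470, 12334 and 13104 TPM in GSCs, and 18320, 22008 and 19491 TPM in Diff cells. GSCs lay below both other lines, which overlapped. MT-ATP6 fell by 0.63 on the log2 scale in GSCs against U87 (SE 0.12, adjusted p = 0.00223 from limma) and rose by 0.62 from GSCs to Diff cells (adjusted p = 0.00426), both with any library left out, though the rise was lost with quantile normalization (0.36, adjusted p = 0.0881). Between Diff cells and U87 the log2 difference was -0.015 (adjusted p = 0.935), against -0.42 with quantile normalization (adjusted p = 0.0475). MT-ATP8 had 689, 830 and 1263 TPM in U87, 932, 549 and 574 TPM in GSCs, and 1416, 1303 and 728 TPM in Diff cells. Its libraries overlapped across all lines and no comparison passed. The log2 ratio of MT-ATP8 to MT-ATP6, which share 1 mRNA and the 46 bases shown above, was -4.49 ± 0.318 in U87, -4.29 ± 0.374 in GSCs and -4.17 ± 0.531 in Diff cells (SD, n = 3 each, exact permutation p = 0.636). That of MT-ND4L to MT-ND4 was -2.79 ± 0.198, -2.88 ± 0.0528 and -2.78 ± 0.182 (exact permutation p = 0.750).

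In gene order the changes of GSCs against U87 formed a block. The 5 mRNAs below 0 were MT-CO2, MT-ATP8, MT-ATP6, MT-CO3 and MT-ND3 (log2 fold change -0.80 to -0.17), which are neighbours on the plus strand, and the 8 others lay between 0.12 and 0.99. From GSCs to Diff cells the same 5 lay between 0.30 and 0.73 and the others between -0.46 and 0.14, with GSCs shared by both comparisons. Of the 5, 2 were called between GSCs and U87 and 3 between Diff cells and GSCs. The block was seen after the values were known and was not tested. With quantile normalization MT-ND1 (-0.20) and MT-CYB also lay below 0 in GSCs against U87.

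A share of the summed TPM of the 13 mRNAs removes the scale of the library. MT-CO3 held 13.3% ± 0.151 of it in U87, 7.11% ± 0.534 in GSCs and 8.97% ± 0.0959 in Diff cells (SD, n = 3 each). MT-ND5 held 5.61% ± 0.142, 9.28% ± 0.228 and 6.83% ± 0.0603 in the same order, and MT-ND6 4.10% ± 0.324, 7.62% ± 1.01 and 5.26% ± 0.625. In none of these 3 did the libraries of 2 lines overlap. The shares of MT-CO2 fell from 19.7% ± 0.0401 in U87 to 16.2% ± 0.667 in GSCs and stood at 18.9% ± 0.350 in Diff cells, while MT-CYB went from 6.02% ± 0.0754 to 6.89% ± 0.0772 and 7.19% ± 0.165. Each of these 5 shares had the smallest p that the exact permutation test over 3 lines can give, 0.00357 (adjusted 0.0186 over the 26 shares and ratios). Of the 13 shares, 10 had an unadjusted p under 0.05 and 7 an adjusted one in the exact permutation test, the other 2 being MT-ND4 and MT-ATP6 (both p = 0.0107, adjusted 0.0279). Because the shares sum to the whole, a fall in one forces rises in others, and these counts are not separate findings. MT-ND1 stayed between 8.63% and 9.33% in all libraries (exact permutation p = 0.982), and MT-ND4L and MT-ATP8 also missed the threshold. Between any 2 lines the test has no p under 0.1, so pairs of lines are described here by their ranges.

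**Figure D3:**
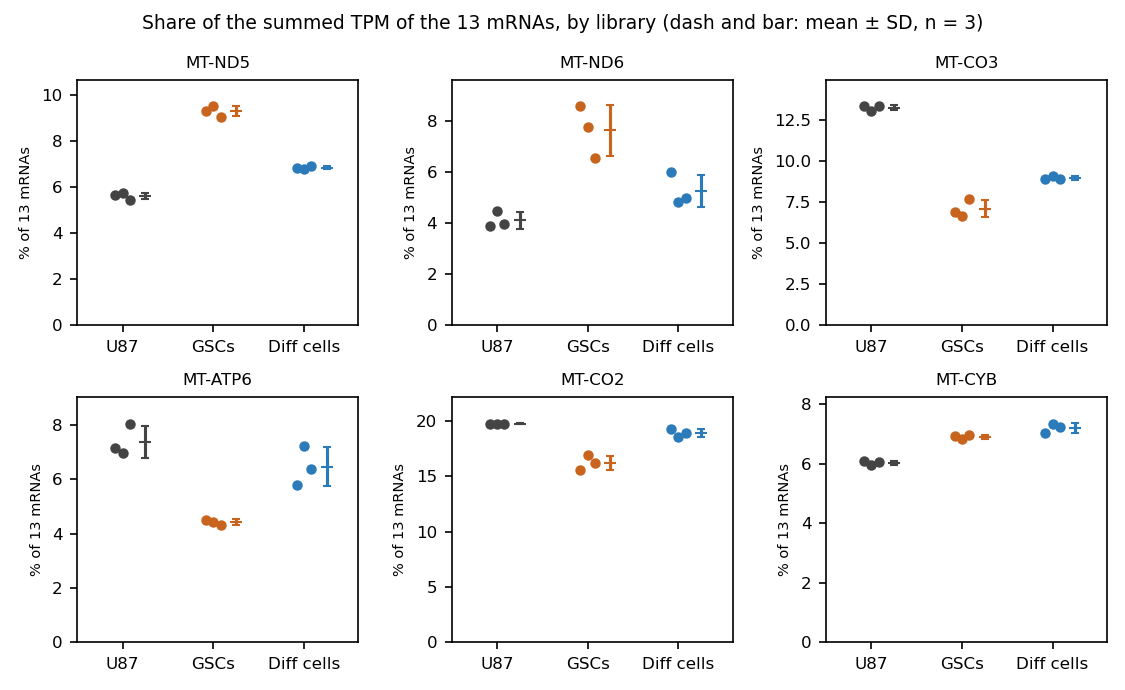
Share of the summed TPM of the 13 mitochondrial mRNAs taken by MT-ND5, MT-ND6, MT-CO3, MT-ATP6, MT-CO2 and MT-CYB, in percent from 0, with 1 point per library and mean ± SD beside them (n = 3). MT-CO3 is near 13.3% in U87 and lower in both other lines, and MT-ND5 is near 9.28% in GSCs and lower in both other lines.

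Ratios between groups of transcripts followed from these shifts. The log2 ratio of the geometric mean of the 12 heavy-strand mRNAs to MT-ND6 was 0.38, 0.15 and 0.43 in U87, -0.83, -0.71 and -0.44 in GSCs, and -0.18, 0.18 and 0.037 in Diff cells. GSCs lay below every library of the other lines, which overlapped. The mean was 0.32 ± 0.149 in U87, -0.66 ± 0.197 in GSCs and 0.015 ± 0.180 in Diff cells (exact permutation p = 0.00714, adjusted 0.0232); on the linear scale the GSCs ratio was 0.506 of that in U87. Since MT-ND6 counts reads of both strands, the ratio compares regions of the circle and not the output of the 2 promoters.

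Complex IV mRNA stood to the 6 heavy-strand mRNAs of complex I at a log2 ratio of 1.74, 1.75 and 1.69 in U87, 1.24, 1.24 and 1.33 in GSCs, and 1.38, 1.31 and 1.35 in Diff cells (geometric means). U87 was higher than both irradiated lines, which overlapped, and the 3 lines differed (exact permutation p = 0.00714, adjusted 0.0232), also with any library left out (p from 0.00357 to 0.0107). The ratio is not a shared shift of the complex IV genes. In GSCs against U87 the log2 fold changes of MT-CO3, MT-CO2 and MT-CO1 were -0.80, -0.18 and 0.35. In Diff cells against U87 they were -0.385, 0.12 and 0.18. For ATP synthase over complex I the means were -1.49 ± 0.245, -2.28 ± 0.243 and -1.70 ± 0.261 (exact permutation p = 0.0393, adjusted 0.0638). That ratio rests in part on MT-ATP8. MT-CYB over complex I moved little, from 0.46 ± 0.0153 in U87 to 0.50 ± 0.0301 in GSCs and 0.54 ± 0.00867 in Diff cells (exact permutation p = 0.00714, adjusted 0.0232), and the sign of its difference between Diff cells and U87 depended on how complex I was summarised, at 0.084 with geometric means and -0.030 with medians.

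The rRNAs MT-RNR1 and MT-RNR2, the RNAs of the small and large mitochondrial ribosomal subunits, are abundant in cells but were low here. MT-RNR2 was at 33.9, 70.4 and 89.7 TPM in U87, 90.9, 103 and 500.3 TPM in GSCs, and 192, 51.5 and 232 TPM in Diff cells. MT-RNR1 was at 27.4, 71.0 and 87.9 TPM in U87, 105, 139 and 670.1 TPM in GSCs, and 197, 62.1 and 302 TPM in Diff cells. GSCs replicate 3 was highest and U87 replicate 1 lowest in both genes, and the spread within GSCs and Diff cells was as large as the differences between lines. limma called 0 of the 2 rRNAs in any comparison, with 1 (MT-RNR1, GSCs against U87) at an unadjusted p under 0.05. Both stayed within a narrow ratio to each other, with a log2 ratio of MT-RNR2 to MT-RNR1 of 0.31, -0.013 and 0.031 in U87, -0.21, -0.43 and -0.42 in GSCs, and -0.038, -0.27 and -0.38 in Diff cells. U87 lay above both other lines in that ratio, with means of 0.11 ± 0.174, -0.35 ± 0.128 and -0.23 ± 0.175 (exact permutation p = 0.0286, adjusted 0.0619). Leaving out U87 replicate 1, the library with the fewest rRNA reads, gave an exact permutation p of 0.0893.

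**Figure D4:**
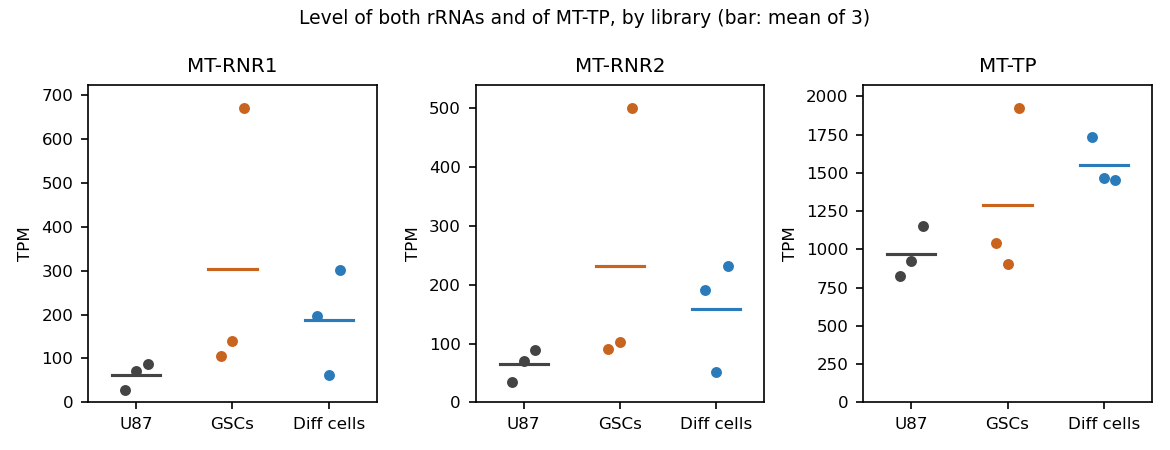
TPM of MT-RNR1, MT-RNR2 and MT-TP from 0, with 1 point per library and a bar at the mean of each line. GSCs replicate 3 is the highest point in all 3 panels, at 670.1, 500.3 and 1924 TPM.

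Of the 22 tRNAs, 7 had no read in any library (MT-TQ, MT-TA, MT-TN, MT-TS1, MT-TK, MT-TG and MT-TR), where a count of 0 allows up to 3 reads per library, and 6 more had 1 to 3 reads over all libraries and were not tested. That limit covers counting error only. Fragments of about 200 bp are longer than these genes, and by the counting inferred above those that reach a neighbour are left out. A low count is therefore not a measure of the level of a tRNA. MT-TP, the proline tRNA on the minus strand (chrM:15956-16023), took 85.6% of all tRNA reads, with 372 to 1014 reads per library. It is shown because it carries nearly all of the counted tRNA signal, which is not a measure of mature tRNA.
MT-TP: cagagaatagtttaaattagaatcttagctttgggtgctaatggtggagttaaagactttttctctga
MT-TP lies last on the circle, next to the non-coding control region, and whether this sets its share of the tRNA reads was not tested. It was at 825, 924 and 1156 TPM in U87, 1044, 906 and 1924 TPM in GSCs, and 1732, 1468 and 1456 TPM in Diff cells. Diff cells lay above U87, and GSCs replicate 3 above all other libraries. The log2 fold change in Diff cells against U87 was 0.69 (SE 0.26, adjusted p = 0.0637 from limma, 0.00449 to 0.227 over the alternatives). MT-TF, the phenylalanine tRNA next to MT-RNR1, had 3, 16 and 25 reads in U87, 24, 32 and 85 in GSCs, and 81, 19 and 77 in Diff cells, with GSCs replicate 3 highest and U87 replicate 1 lowest as for the rRNAs. limma called 0 of the 9 tested tRNAs, with 2 at an unadjusted p under 0.05 between Diff cells and U87, 1 between GSCs and U87 and 0 between Diff cells and GSCs. The summed TPM of the 8 light-strand tRNAs exceeded that of the 14 heavy-strand ones by a log2 ratio of 3.41 ± 0.557 in U87, 2.78 ± 0.295 in GSCs and 2.69 ± 0.467 in Diff cells (exact permutation p = 0.214). This excess rests on MT-TP. The next light-strand tRNAs, MT-TY and MT-TC, had means of 19.1 and 4.01 TPM in U87, below 53.3 for MT-TM and 27.8 for MT-TF on the heavy strand. With strand ignored in the counting, the ratio compares regions of the circle and not strands.

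The nuclear-encoded proteins that copy, transcribe, process and degrade mitochondrial nucleic acid were taken as a list of 63 genes, of which 62 passed the filter. In GSCs against U87, 15 were higher (24.2%) and 17 lower (27.4%), near the shares of all genes given above. Between Diff cells and U87 19 were higher (30.6%, beside 18.9% of all genes) and 7 lower (11.3%, beside 20.5%), and in Diff cells against GSCs 18 (29%, beside 15%) and 7 (11.3%, beside 19.8%). Their median log2 fold change was -0.057, 0.11 and 0.13 in these comparisons. The polymerase POLRMT was at 68.4, 62.7 and 64.7 TPM in U87, 51.5, 57.9 and 41.6 TPM in GSCs, and 55.8, 56.0 and 52.4 TPM in Diff cells, and fell in GSCs against U87 by 0.38 on the log2 scale (adjusted p = 0.0169 from limma, 0.0585 without U87 replicate 1). TFAM, which packages mitochondrial DNA and opens its promoters, rose in GSCs against U87 by 0.53 (adjusted p = 0.00875) and in Diff cells by 0.44 (adjusted p = 0.0261, lost without U87 replicate 2 or 3 or Diff replicate 1 or 3, at 0.0597 to 0.0868). TFB2M, the initiation factor, rose from GSCs to Diff cells by 0.43 (adjusted p = 0.0141, 0.055 without Diff replicate 3). The elongation factor TEFM had log2 fold changes of -0.31 in GSCs and -0.38 in Diff cells against U87 (adjusted p = 0.0375 and 0.0201, called in 2 and 7 of 9 fits with a library left out).

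Genes of RNA stability and processing differed in direction. SLIRP, which with LRPPRC stabilises the heavy-strand mRNAs, was at 25.8, 25.3 and 24.6 TPM in U87, 16.1, 17.0 and 18.8 TPM in GSCs, and 23.7, 22.9 and 25.6 TPM in Diff cells. GSCs lay below both other lines, and the fall against U87 was 0.52 on the log2 scale (adjusted p = 0.000418 from limma) and the rise to Diff cells 0.46 (adjusted p = 0.00171). LRPPRC passed the test in no comparison (adjusted p = 0.752 for GSCs and 0.0909 for Diff cells against U87, and 0.0572 between Diff cells and GSCs). GRSF1, a protein of the mitochondrial RNA granules, fell in both lines against U87, by 0.37 in GSCs and 0.39 in Diff cells. SUPV3L1, the helicase of the mitochondrial degradosome, was higher in both, by 0.35 and 0.64 (adjusted p = 0.00168 and 5.86e-05), while its partner PNPT1 was called between Diff cells and GSCs alone (0.47, adjusted p = 0.023, called in 4 of 9 fits with a library left out). TBRG4, also known as FASTKD4, rose by 0.57 and 0.72, and the mitochondrial helicase TWNK by 0.41 and 0.55. FASTK rose in Diff cells, by 0.47 against U87 and 0.39 against GSCs. ELAC2, which cuts the 3′ ends of tRNAs, fell by 0.40 in GSCs against U87 (adjusted p = 0.00131) and rose by 0.49 to Diff cells (adjusted p = 0.000837). MTERF1 rose in Diff cells against U87 by 0.42 (adjusted p = 0.0203, called in 6 of 9 such fits), FASTKD5 from GSCs to Diff cells by 0.34 (adjusted p = 0.0228, 4 of 9), and MTPAP, the mitochondrial poly(A) polymerase, passed in none.

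The called genes of the list with the greatest changes were as follows. LONP1, a matrix protease that degrades TFAM, was at 116, 110 and 105 TPM in U87, 56.9, 63.0 and 50.8 TPM in GSCs, and 89.4, 106 and 97.7 TPM in Diff cells, and fell by 0.95 on the log2 scale in GSCs against U87 (adjusted p = 3.61e-05 from limma). TRMU, which thiolates tRNAs, fell by 0.89 and HSD17B10, a subunit of mitochondrial RNase P, by 0.85 in the same comparison, whereas TOP1MT (0.77), MTERF2 (0.76) and POLG2 (0.60) rose. POLG2, the accessory subunit of the mitochondrial DNA polymerase, fell from GSCs to Diff cells by 1.002 on the log2 scale (adjusted p = 6.88e-05), as did TFB1M (-0.51) and PRIMPOL (-0.48), and LONP1 (0.77), FASTKD1 (0.66) and ENDOG (0.63) were higher. In Diff cells against U87 the greatest rises were those of MRM1 (0.89), TBRG4 and FASTKD1 (0.70), and the greatest falls those of TRMU (-0.47), TFB1M (-0.46) and POLG2 (-0.40). All of these calls held with any library left out, except that of PRIMPOL, lost without Diff replicate 2 or 3 (0.0792 and 0.0654).

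Nuclear-encoded subunits of the respiratory chain and ATP synthase were taken as a list of 47 genes, which all passed the filter. The list does not hold every such subunit, and it includes those of complex II, which has no mitochondrial gene. Among its genes limma called 5 higher (10.6%, beside 25.3% of all genes) and 16 lower (34%, beside 23.3%) in GSCs against U87. Between Diff cells and U87 the counts were 25 higher (53.2%, beside 18.9%) and 1 lower (2.13%, beside 20.5%). From GSCs to Diff cells they were 29 higher (61.7%, beside 15%) and 0 lower (beside 19.8%, with 1 lower at an unadjusted p under 0.05). Their median log2 fold change was -0.16, 0.32 and 0.45, beside the 0.14, 0.27 and 0.13 of the 13 mitochondrial mRNAs.

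The nuclear genome holds copies of mitochondrial genes, which can exchange reads with their parents. Of 402 such rows 47 passed the filter, and all copies together summed to 0.198% to 0.307% of the mitochondrial TPM. Of the 47, limma called 12.8% higher and 14.9% lower in GSCs against U87 (all genes 25.3% and 23.3%), 12.8% and 4.26% in Diff cells against U87 (18.9% and 20.5%), and 10.6% and 12.8% in Diff cells against GSCs (15% and 19.8%). The 3 highest lie close together on chromosome 1 and are 98.4% to 98.7% identical to their parents. MTATP6P1 (chr1:633696-634376, GRCh38) was at 513, 478 and 595 TPM in U87, 296, 306 and 424 TPM in GSCs, and 484, 567 and 560.1 TPM in Diff cells, or 2.2% to 3.24% of MT-ATP6. GSCs were lowest, as for MT-ATP6, with a log2 fold change of -0.64 against U87 (adjusted p = 0.00575 from limma) beside -0.63 for the parent. MTND2P28 rose by 0.64 in GSCs and 0.77 in Diff cells against U87 (adjusted p = 0.0204 and 0.0107), where MT-ND2 rose by 0.38 and 0.47, and held at most 0.347% of its parent's TPM. MTCO1P12 rose by 0.65 and 0.56, at no more than 0.0622% of MT-CO1. Whether these reads arose from the copies or from the parents was not tested.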

How the data were processed

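RNA-seq libraries of U87, GSCs and Diff cells (3 each) were analysed from 1 table in which the authors deposited log2(TPM + 1) per gene. The submitters' notes list FastQC 0.11.9, Trimmomatic 0.39, HISAT2 2.2.1, featureCounts 2.0.5, R 4.2.0 and GRCh38, without roles. The annotation version is not given in the sources used here. Values were turned back to TPM, and reads of the mitochondrial rows were recovered with gene lengths of GENCODE 29 (53531 of 60606 rows matched; whole within 0.02 reads). Reads recovered this way were used as a description of depth, and no count test was run.

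The values of 22909 genes with a mean TPM over 1 were fitted with limma 3.58.1 in R 4.3.3 (log2(TPM + 1), a mean-variance trend, the line as the only term), with Benjamini-Hochberg adjustment over all of them in each comparison. Fold changes are on the log2(TPM + 1) scale, which understates changes of low genes. The mitochondrial genes are among the most abundant, where few genes set the trend: the fitted SD at the level of MT-ND5 was 0.214, against 0.0592 for the gene itself. Shares and ratios were compared with two-sided exact permutation tests over the 9 libraries, where the smallest p is 0.00357 for 3 lines and 0.1 for 2. Both procedures were tested on simulated data. Alternatives covered the pseudocount, filters, 3 scalings, the trend, the samples in the fit, the replicate number as a block and each library left out. Every mitochondrial gene could be named. From the list of nuclear genes acting on mitochondrial nucleic acid a set fixed by role was named (POLRMT, TFAM, TFB2M, TEFM, MTERF1, LRPPRC, SLIRP, GRSF1, TBRG4, FASTKD5, FASTK, MTPAP, PNPT1, SUPV3L1, ELAC2, TWNK), with the 3 called genes of greatest change in each direction, and of the nuclear copies the 3 with the highest mean TPM. The members and lists were chosen with earlier results of these data known. Counting error is the only error that read numbers cover. Sequences and coordinates are those of GENCODE 29.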

Additional observations from a re-analysis of the deposited data

How the results depend on the processing

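The replicate numbers did not pair the libraries: deviations of same-numbered libraries from their line means correlated between -0.0416 and 0.0489. For shares and ratios, passing in this paragraph means an unadjusted exact permutation p under 0.05. With the replicate number as a block the smallest p of the exact permutation test is 0.0278, so a loss may come from the fewer rearrangements alone. In that test the share of mitochondrial TPM no longer passed (3.66 percentage points, exact permutation p = 0.167). Neither did that of the mRNAs (3.57, exact permutation p = 0.139) or the ratio of heavy-strand mRNA to MT-ND6 (0.98, exact permutation p = 0.0556). The same held for ATP synthase to complex I (0.79, exact permutation p = 0.111) and MT-CYB to complex I (0.084, exact permutation p = 0.0556). Once adjusted, both shares and ATP synthase to complex I missed 0.05 without the block too (adjusted exact permutation p = 0.0710, 0.0638 and 0.0638). With the block 6 instead of 10 mRNA shares passed, and 2 instead of 5 mitochondrial genes were called in Diff cells against GSCs. With a total of protein-coding and mitochondrial genes only, the first 2 differences were 3.21 and 3.10 (exact permutation p = 0.0536 each). With single libraries left out, the first ranged from 2.89 to 4.34, the second from 2.808 to 4.25, the tRNA share from 0.0582 to 0.0874 (past the threshold in 1 case, without GSCs replicate 3, exact permutation p = 0.0357), MT-RNR2 to MT-RNR1 from 0.36 to 0.54, ATP synthase to complex I from 0.65 to 0.92 and MT-ND4L to MT-ND4 from -0.0020 to 0.17. MT-CYB to complex I was -0.030 with medians and 0.068 without MT-ATP8 and MT-ND4L; its GSCs minus U87 difference was -0.023 with sums and -0.28 with medians, and complex IV to complex I, Diff cells minus GSCs, was -0.057 with medians. Without MT-TP, an alternative chosen after seeing the data, the log2 strand ratio of the tRNAs was higher in U87 than in Diff cells by 1.13 (exact permutation p = 0.05 over the 3 lines). Medians of the tRNAs were not run, since most are at 0.

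Counts of called genes moved with filters most. With no filter limma called 0 mitochondrial genes in each comparison, because the 18182 genes at 0 in all libraries drew the fitted SD at the level of MT-ND5 to 14.2. With all genes above 0 TPM, chosen after seeing the data, it called 0 between Diff cells and U87, 4 between GSCs and U87 and 1 between Diff cells and GSCs. In Diff cells against GSCs it called 3 with TPM rescaled without mitochondrial genes and RN7SL1, and 2 with median-ratio scaling or with the 2 lines alone. With quantile normalization MT-ND1 (-0.20) and MT-CYB (-0.091) turned in GSCs against U87, and the calls it made included 1 of the 6 in Diff cells against U87, 4 of the 6 in GSCs against U87 and 4 of the 5 in Diff cells against GSCs. Leaving out single libraries gave 3 to 7 calls between Diff cells and U87, 4 to 6 between GSCs and U87 and 2 to 6 between Diff cells and GSCs. Of the machinery genes it gave 16 to 31 between Diff cells and U87 and 15 to 30 between Diff cells and GSCs, and of the nuclear copies 6 to 14 between GSCs and U87 and 6 to 12 between Diff cells and GSCs. At a mean TPM over 5, 4, 8 and 6 nuclear copies were called for Diff cells and GSCs against U87 and for Diff cells against GSCs, and with all genes above 0 TPM 14, 21 and 19. Filters change how many copies are tested, and the share of all genes called under other filters or with a library left out is not given here. These counts therefore describe the dependence on settings and are not results about the copies or the machinery genes. The cause of the other shifts was not tested.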
